A study of Mus musculus with 24 samples.

Results

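The comparison described here asks whether the cortex of SV129 mice answered the inhibitor CBE differently from the cortex of FVB mice. It is the difference of 2 differences, CBE minus PBS in SV129 less CBE minus PBS in FVB, and it uses 12 of the 24 arrays of a study of 4 inbred strains. The contrast was taken over 22180 genes, all those represented by a probe set with 1 gene symbol, with the probe set of highest mean standing for a gene that had several. CBE (conduritol B-epoxide) blocks the lysosomal enzyme that breaks down glucosylceramide, and the study uses it to model neuronopathic Gaucher disease, a lysosomal storage disorder in which this enzyme is deficient. All mice were males of 18 days. The groups were SV129 given CBE, SV129 given PBS, FVB given CBE and FVB given PBS, with 3 arrays in each, and the injections were intraperitoneal, at 25 mg/kg per day for CBE, from postnatal day 8 to day 18. No gene was altered in any group: the strains are whole inbred backgrounds and the model is chemical. The labels number the replicates and do not say how litters were spread over groups, and the p-values below measure only the spread between these arrays.

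Type I and type II interferons act through receptors on nearly all cells and switch on a shared set of genes through STAT and IRF transcription factors. These interferon-stimulated genes include antiviral proteins of the IFIT and OAS families, guanylate-binding and immunity-related GTPases, chemokines that draw lymphocytes, and the class I antigen presentation pathway. In the brain, microglia are a main source of many of the chemokines, complement proteins and lysosomal proteases described here, and astrocytes and neurons also express interferon-stimulated genes.

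Values are log2 signals, so a difference of 1 is 2-fold, and the median over all probe sets was 4.18. Array medians ran from 4.14 to 4.22. In SV129 the CBE medians (4.19 to 4.22) lay just above the PBS medians (4.14 to 4.17). The correlation across genes was 0.989 to 0.992 between arrays of a group and 0.982 to 0.989 between arrays of different strains. The tissue label was borne out by the cortical markers Slc17a7, the vesicular glutamate transporter of cortical excitatory neurons, at 11.03 to 11.40 in the 12 arrays, Neurod6 at 8.07 to 8.73, Tbr1 at 7.74 to 8.10 and Cux2 at 7.49 to 8.07. Emx1 was low, at 3.73 to 4.13. The microglial marker P2ry12 was at 8.38 to 8.87 and Tmem119 at 5.48 to 5.79. Slc17a6, the transporter typical of thalamic neurons, was also high, at 7.49 or above in all 12 arrays, while Tcf7l2, another thalamic marker, lay at 3.98 to 4.27. Tissue was measured in bulk, and a lower level of a gene can mean fewer cells of a type or less RNA per cell, which cannot be told apart.

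The response differed between the strains in 5 genes, all with a smaller response in SV129: the chemokines Ccl5 and Cxcl11, the class I light chain B2m, the lysosomal protease Ctss and the inflammatory caspase Casp1. These are 0.0225% of the genes tested (limma, Benjamini-Hochberg adjusted p under 0.05). All 5 rose in FVB, by 0.92 to 2.92 on the log2 scale, and none of them passed the test in SV129. No gene passed in the other direction. At an unadjusted p under 0.05 there were 1454 of 22180 genes, 851 with a smaller and 603 with a larger CBE-minus-PBS value in SV129. A share of 0.05 of the genes would reach that threshold with no true difference, so these counts are a description only. The median standard error of the contrast was 0.142, against 0.10 for a response within 1 strain, so it resolves less than either of its parts.

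Ccl5 is a chemokine that attracts T cells and monocytes. Its log2 signal was 4.62, 4.35 and 5.15 in SV129 CBE arrays, 4.23, 4.24 and 4.14 in SV129 PBS arrays, 7.06, 7.24 and 6.93 in FVB CBE arrays, and 4.23, 4.01 and 4.23 in FVB PBS arrays. All 3 FVB CBE arrays stood far above the other 9, and the 3 SV129 CBE arrays were only slightly above both PBS groups. The change was 0.50 ± 0.16 (SE) in SV129, with limma's adjusted p of 0.298, and 2.92 ± 0.16 in FVB, a 7.56-fold rise with an adjusted p of 1.15e-06. The difference between the responses was -2.42 ± 0.22, with an adjusted p of 0.000808.

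Cxcl11 is an interferon-induced chemokine that attracts activated T cells through the receptor Cxcr3. It read 4.57, 4.41 and 4.33 in SV129 CBE arrays, 4.17, 4.35 and 4.16 in SV129 PBS arrays, 5.76, 5.74 and 5.92 in FVB CBE arrays, and 3.89, 4.12 and 4.10 in FVB PBS arrays. Again the 3 FVB CBE arrays were separate from all others, and SV129 CBE overlapped SV129 PBS. The change was 0.21 ± 0.10 in SV129 and 1.78 ± 0.10, or 3.42-fold, in FVB. The difference of -1.56 ± 0.13 had the smallest adjusted p of all genes, 0.000615.

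B2m is the light chain that every class I major histocompatibility molecule needs to reach the cell surface. It read 9.58, 9.93 and 9.70 in SV129 CBE arrays, 10.05, 9.67 and 9.86 in SV129 PBS arrays, 11.51, 11.40 and 11.01 in FVB CBE arrays, and 9.88, 9.65 and 9.45 in FVB PBS arrays. The FVB CBE arrays were highest, and the other groups lay within 1 overlapping band. The change was -0.12 ± 0.15 in SV129, with a 95% interval from -0.45 to 0.20, and 1.65 ± 0.15, or 3.13-fold, in FVB. The difference was -1.77 ± 0.21 (adjusted p = 0.0103).

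Ctss encodes cathepsin S, a protease of lysosomes and endosomes that trims the invariant chain of class II molecules and is made in the brain mainly by microglia. It read 9.004, 8.70 and 9.18 in SV129 CBE arrays, 9.19, 8.86 and 8.98 in SV129 PBS arrays, 10.55, 10.38 and 10.27 in FVB CBE arrays, and 9.16, 9.13 and 8.84 in FVB PBS arrays. SV129 CBE overlapped both PBS groups, and FVB CBE overlapped none. The change was -0.05 ± 0.13 in SV129, with an interval from -0.34 to 0.24, and 1.35 ± 0.13, or 2.56-fold, in FVB. The difference was -1.40 ± 0.19 (adjusted p = 0.0217).

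Casp1 is the protease of the inflammasome that activates interleukin-1β. It read 4.54, 4.79 and 4.72 in SV129 CBE arrays, 4.74, 4.78 and 4.86 in SV129 PBS arrays, 5.53, 5.43 and 5.40 in FVB CBE arrays, and 4.38, 4.54 and 4.67 in FVB PBS arrays. The 3 FVB CBE arrays were again the highest. The change was -0.11 ± 0.09 in SV129, with an interval from -0.31 to 0.09, and 0.92 ± 0.09, or 1.90-fold, in FVB. The difference was -1.03 ± 0.13 (adjusted p = 0.0133).

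**Figure D1:**
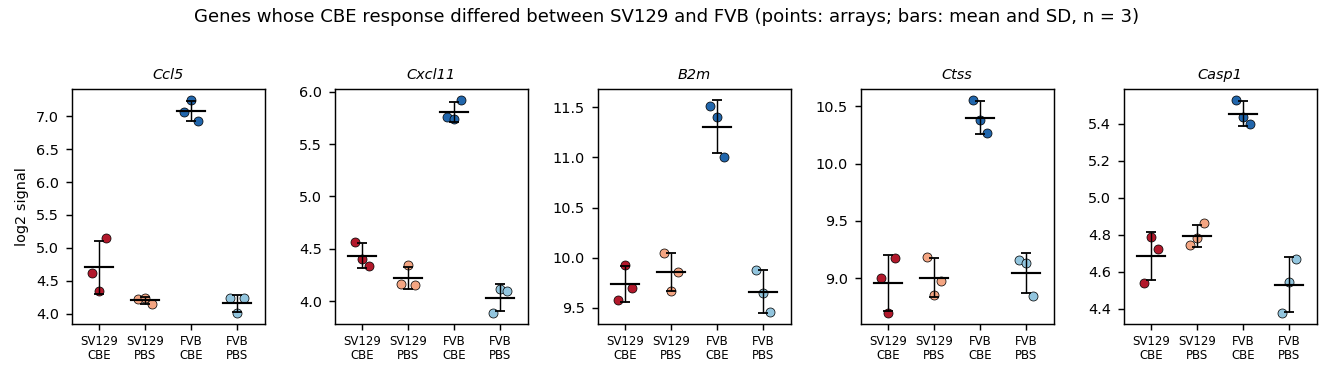
Log2 signal (vertical axes, a separate range for each gene) of the 5 genes whose CBE response differed between the strains, with 1 point per array and the mean and SD of 3 arrays for SV129 CBE, SV129 PBS, FVB CBE and FVB PBS from left to right. In each panel the 3 FVB CBE arrays lie above the other 9, as for B2m, where they read 11.01 to 11.51 and no other array exceeded 10.05. The genes were chosen by a test on these arrays, so the separation partly follows from the choice.

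The starting levels of these 5 genes did not pass the test between the strains: SV129 PBS minus FVB PBS was 0.04 for Ccl5, 0.19 for Cxcl11, 0.20 for B2m, -0.04 for Ctss and 0.26 for Casp1, with limma's adjusted p from 0.184 to 0.936. Over the same arrays 519 genes (2.34%) did pass between the PBS groups, 365 of them higher in SV129. How firmly the 5 genes were called varied. Ccl5 and Cxcl11 passed with any 1 array left out, whereas B2m, Ctss and Casp1 did not pass without SV129 PBS replicate 3, FVB PBS replicate 2 or FVB CBE replicate 2. Ctss did not pass either without SV129 CBE replicate 1, FVB CBE replicate 1 or FVB PBS replicate 3, and the adjusted p in these refits ran from 0.0541 to 0.0879. In a limma fit of all 24 arrays, whose spread includes a C3H CBE array that stands apart (B2m at 11.40 there, against 10.09 and 9.92 in the other C3H CBE arrays), no gene passed. In that fit 1772 genes had an unadjusted p under 0.05, and the adjusted p was 0.0762 for Ccl5 and for Cxcl11, 0.111 for B2m, 0.186 for Casp1 and 0.288 for Ctss. Without that single array 8 genes passed: Ccl5, Cxcl11, B2m and Ctss of the 5, and Cxcl13, Gbp10, H2-Q4 and Cntn6, all negative.

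In the other strains of the study the mean of each of these genes was also higher in CBE than in PBS arrays. In C57 the CBE-minus-PBS means, given without a test, were 2.70 for Ccl5, 0.39 for Cxcl11, 0.94 for Ctss and 0.37 for Casp1, and B2m read 11.73 to 11.98 in CBE and 11.12 to 11.20 in PBS arrays. In C3H the means over all 3 CBE arrays were 1.26 for Ccl5, 0.92 for Cxcl11, 1.07 for B2m, 0.85 for Ctss and 0.30 for Casp1. Without the C3H CBE array that stands apart, the highest for each of these genes, they were 1.02, 0.51, 0.61, 0.39 and 0.21. For Casp1 the groups overlapped in both strains. It read 5.19, 4.97 and 5.53 in C57 CBE and 4.73, 4.62 and 5.22 in C57 PBS arrays. In C3H it read 5.25, 5.04 and 4.95 in CBE arrays and 4.58, 4.68 and 5.09 in PBS arrays. For Ccl5, 1 C57 PBS array read 6.04 and the others 4.38 and 4.52, against 7.60 to 7.83 in C57 CBE arrays.

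Promoter sequences are shown for genes of both patterns, those that rose in FVB with a smaller response in SV129 (B2m and Ctss) and those that rose in both strains (Ifit1 and Isg15), because interferon-stimulated genes are known for a shared promoter element, the ISRE. Each is the 250 bases before the RefSeq start in the mouse reference build GRCm38.p6, read 5′ to 3′ on the gene's strand, and the capitals mark matches to the ISRE core, which is GAAA, any 2 bases and GAAA, or its reverse complement, TTTC, any 2 bases and TTTC.
B2m (chr2:122147437-122147686, plus strand): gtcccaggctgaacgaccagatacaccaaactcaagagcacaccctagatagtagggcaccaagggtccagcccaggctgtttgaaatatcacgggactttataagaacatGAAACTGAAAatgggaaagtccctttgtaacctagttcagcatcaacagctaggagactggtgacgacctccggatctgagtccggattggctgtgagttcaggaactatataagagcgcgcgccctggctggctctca
Ctss (chr3:95526536-95526785, plus strand): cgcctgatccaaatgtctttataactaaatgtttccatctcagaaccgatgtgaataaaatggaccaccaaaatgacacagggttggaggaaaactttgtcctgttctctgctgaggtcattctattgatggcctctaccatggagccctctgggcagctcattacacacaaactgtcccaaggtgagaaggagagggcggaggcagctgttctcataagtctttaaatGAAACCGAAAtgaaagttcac
Ifit1 (chr19:34640639-34640888, plus strand): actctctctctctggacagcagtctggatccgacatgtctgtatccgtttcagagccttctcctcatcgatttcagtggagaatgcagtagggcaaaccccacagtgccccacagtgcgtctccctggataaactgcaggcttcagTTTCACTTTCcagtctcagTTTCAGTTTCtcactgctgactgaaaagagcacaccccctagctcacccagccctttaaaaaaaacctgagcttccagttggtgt
Isg15 (chr4:156200819-156201068, minus strand): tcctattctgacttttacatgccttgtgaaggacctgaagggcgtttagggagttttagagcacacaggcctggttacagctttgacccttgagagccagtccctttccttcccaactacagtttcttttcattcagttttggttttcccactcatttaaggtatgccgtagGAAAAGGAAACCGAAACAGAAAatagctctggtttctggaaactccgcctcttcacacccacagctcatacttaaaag
Counted from the start, the B2m match began at position -139 and the Ctss match at -21. Ifit1 held 2 matches, beginning at -104 and -85, and Isg15 held 3 overlapping ones, beginning at -78, -72 and -66. Casp1 held none in its window. For Ccl5 and Cxcl11 no window was available, so only 3 of the 5 genes whose response differed could be read, and 2 of these held a match. Over the genes with a window, 13 of 53 that rose in FVB held the core (24.5%), as did 3 of 4 that rose in SV129, against 577 of 16990 genes tested (3.40%). A second element, the GAS core TTCNNNGAA, which reads the same on both strands, was present in 6 of the 53 (11.3%) and in 7.82% of all genes tested. These letters are those of the reference mouse, not of SV129 or FVB, and a match is a description of the sequence only.

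The genes nearest the threshold, all with an adjusted p of 0.152, were Itga4 at -0.93, Zfp72 at -0.84, Adcy8 at -1.08, Gbp7 at -1.24, Gbp10 at -1.94, Iigp1 at -1.46 and H2-Q4 at -1.50, with Igfbp3 at 0.83 as the single positive one. Of the 20 smallest p-values, 18 belonged to negative differences, and 12 of those 18 were genes that passed the test as higher in FVB CBE. Negative values came from genes that rose in FVB with a smaller value in SV129, such as Gbp10 at 0.09 in SV129 and 2.03 in FVB, and from genes that fell in SV129 with no fall past the threshold in FVB, such as Itga4 at -0.95 in SV129 and -0.02 in FVB.

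The largest difference of any gene was that of Cxcl13, a chemokine that attracts B cells, and it did not pass. Cxcl13 read 7.29, 6.48 and 7.67 in SV129 CBE arrays, 6.67, 5.12 and 5.03 in SV129 PBS arrays, 8.51, 9.49 and 8.61 in FVB CBE arrays, and 4.55, 4.36 and 4.59 in FVB PBS arrays. The SV129 PBS array at 6.67 overlapped the SV129 CBE arrays. The difference was -2.84 ± 0.56 (adjusted p = 0.237), from 1.54 ± 0.40 in SV129 and 4.37 ± 0.40 in FVB, and only the FVB rise passed (adjusted p = 0.00012).

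**Figure D2:**
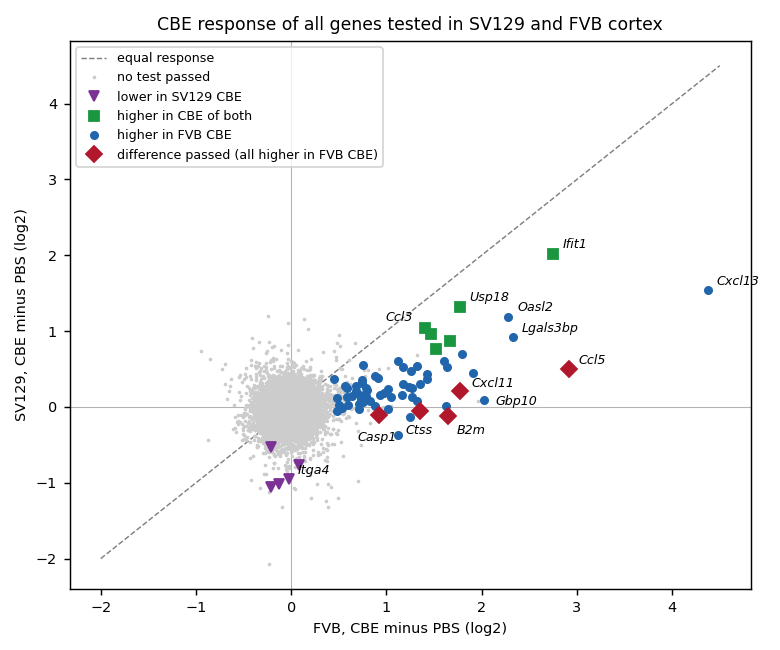
CBE minus PBS in SV129 (vertical axis, log2) against CBE minus PBS in FVB (horizontal axis, log2) for 22180 genes, 1 point per gene, with marks for the genes past a test and a dashed line where both responses are equal. The 5 genes whose difference passed lie to the right near the zero of the vertical axis, with Ccl5 at 0.50 in SV129 and 2.92 in FVB, and Ifit1 lies nearer the dashed line at 2.02 in SV129 and 2.75 in FVB.

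Part of the response was common to both strains. After CBE 11 genes passed in SV129 (0.0496%), 6 higher and 5 lower, and 70 passed in FVB (0.316%), all of them higher. All 6 genes that rose in SV129 also rose in FVB: Ifit1, Usp18, Ccl3, Isg15, Rtp4 and Cxcl10. None of the 6 differed between the strains by the test of the difference, although each difference was below 0, at -0.36 to -0.81 (adjusted p from 0.294 to 0.810).

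Ifit1, an antiviral protein that binds foreign RNA ends, read 6.48, 5.72 and 6.54 in SV129 CBE arrays, 4.05, 4.31 and 4.31 in SV129 PBS arrays, 6.93, 7.62 and 7.09 in FVB CBE arrays, and 4.40, 4.39 and 4.60 in FVB PBS arrays. Within each strain the CBE arrays lay well above the PBS arrays. The rise was 4.06-fold in SV129 (adjusted p = 0.00461) and 6.73-fold in FVB (adjusted p = 3.92e-05). The difference was -0.73 ± 0.29, with an unadjusted 95% interval from -1.35 to -0.10.

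Isg15, a ubiquitin-like protein attached to other proteins after interferon, read 6.32, 6.10 and 6.21 in SV129 CBE arrays, 5.15, 5.26 and 5.32 in SV129 PBS arrays, 6.93, 7.28 and 7.07 in FVB CBE arrays, and 5.73, 5.78 and 5.36 in FVB PBS arrays. FVB lay higher than SV129 under either agent. The rise was 1.95-fold in SV129 and 2.78-fold in FVB, and the interval of the difference ran from -0.87 to -0.14. Usp18, which removes Isg15 from proteins and dampens interferon receptor signalling, read 5.32, 4.56 and 4.99 in SV129 CBE arrays, 3.64, 3.76 and 3.51 in SV129 PBS arrays, 4.88, 5.68 and 5.62 in FVB CBE arrays, and 3.59, 3.63 and 3.62 in FVB PBS arrays. The CBE arrays of the 2 strains overlapped, and the interval of the difference, -1.07 to 0.16, includes 0.

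Rtp4, an interferon-induced chaperone of membrane receptors, rose 1.82-fold in SV129 and 3.18-fold in FVB. Cxcl10, which like Cxcl11 binds Cxcr3, read 4.36, 4.35 and 4.32 in SV129 CBE arrays, 3.59, 3.55 and 3.58 in SV129 PBS arrays, 4.83, 5.38 and 5.38 in FVB CBE arrays, and 3.72, 3.69 and 3.62 in FVB PBS arrays. The SV129 rise was thus small and even, 1.70-fold, and the FVB rise was 2.87-fold. Ccl3, a chemokine that microglia release, rose 2.06-fold in SV129 and 2.64-fold in FVB, and the interval of its difference was -0.79 to 0.06. The SV129 calls rested on few arrays. With SV129 CBE replicate 1 left out no gene passed in SV129 (limma, 2642 genes at an unadjusted p under 0.05), and the adjusted p of Ifit1 was then 0.0532. Of the 12 fits that left out 1 array, the SV129 rise did not pass in 11 for Rtp4, 10 for Cxcl10, 9 for Usp18, 4 for Ccl3, 3 for Isg15 and 1 for Ifit1.

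**Figure D3:**
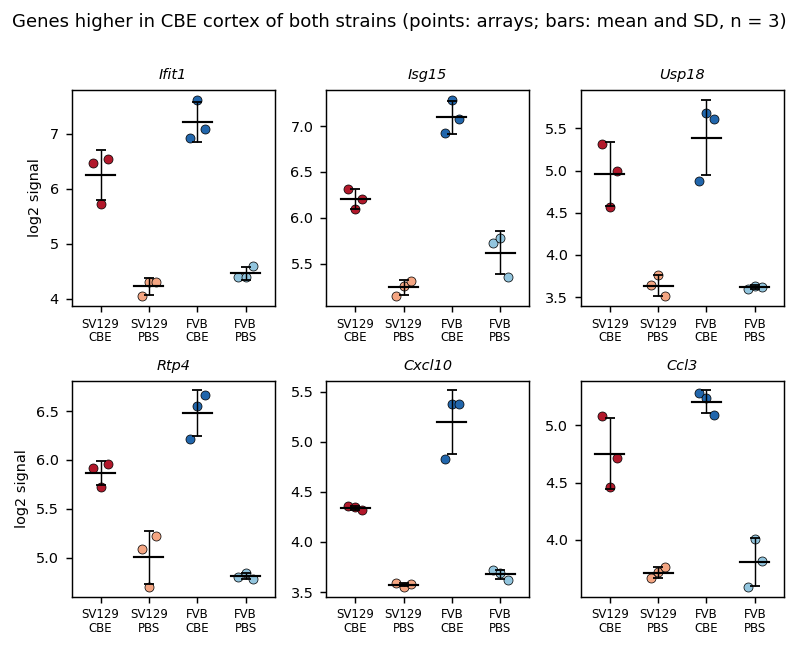
Log2 signal (vertical axes, a separate range for each gene) of the 6 genes that rose after CBE in both strains, with 1 point per array and the mean and SD of 3 arrays for SV129 CBE, SV129 PBS, FVB CBE and FVB PBS from left to right. In each panel the CBE arrays lie above the PBS arrays of their own strain, as for Ifit1, at 5.72 to 6.54 against 4.05 to 4.31 in SV129 and at 6.93 to 7.62 against 4.39 to 4.60 in FVB.

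The 70 genes that rose in FVB were also read in SV129. The choice rests on the FVB means and on a spread estimated over all 12 arrays, SV129 included, and leaving out 1 SV129 array moved the count between 57 and 71. In SV129, 60 of the 70 were above 0 and 10 below, with a median change of 0.228, against -0.003 for all genes. For 26 of them (37.1%) the 3 SV129 CBE arrays all lay above the 3 PBS arrays, a separation seen in 6.46% of all genes, and 6 (8.57%) passed the test, against 0.0271% of all genes that rose in SV129. Of the 70, 11 already differed between the PBS groups. The genes were chosen for high FVB values, so their smaller values in SV129 are partly fixed by the choice and are no test of the difference.

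By function, some antiviral interferon-stimulated genes rose in both strains. Of 40 measured members, 4 rose in SV129 and 13 in FVB, against 0.0271% and 0.316% of all genes. None passed the test of the difference. The same shares over all genes apply to the counts of every list below. The median change was 0.156 in SV129 and 0.500 in FVB, against -0.003 and -0.012 over all genes, and 33 of 40 differences were below 0 (49.7% over all genes). The mean of the list on an array was 4.68, 4.56 and 4.65 in SV129 CBE, 4.32, 4.30 and 4.33 in SV129 PBS, 4.87, 5.10 and 5.01 in FVB CBE, and 4.34, 4.32 and 4.36 in FVB PBS. The PBS arrays of the 2 strains thus started from nearly the same low level, and the groups ranked with both CBE groups above PBS and FVB CBE above SV129 CBE. Among the members, Oasl2, a 2′-5′ oligoadenylate synthetase-like protein, was at 1.19 in SV129 (adjusted p = 0.0929) and rose by 2.28 in FVB. Lgals3bp, a secreted galectin ligand, was at 0.92 in SV129 and rose by 2.33 in FVB, a difference of -1.41 (adjusted p = 0.237). Ifi27 was at 0.30 in SV129 and rose by 1.35 in FVB. Herc6, the ligase that attaches Isg15 in mice, differed before treatment: it read 4.95, 5.58 and 5.29 in SV129 PBS arrays and 6.81, 6.94 and 6.99 in FVB PBS arrays (adjusted p = 4.33e-05).

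The interferon-induced GTPases, which attack vacuoles that hold microbes, had the widest gap between the medians of the immune lists, 0.209 in SV129 and 0.926 in FVB. Of 11 members, none rose in SV129 and 5 rose in FVB (0.316% of all genes). Below 0 were 10 of 11 differences (49.7% over all genes), without 1 passing. Gbp10, a guanylate-binding protein, read 4.53, 4.41 and 4.65 in SV129 CBE arrays, 4.65, 4.32 and 4.34 in SV129 PBS arrays, 7.46, 6.87 and 6.30 in FVB CBE arrays, and 4.65, 4.58 and 5.32 in FVB PBS arrays. FVB CBE stood apart, and the other groups overlapped apart from 1 higher FVB PBS array. Gbp7, of the same family, was at 0.08 in SV129 and rose by 1.32 in FVB. Iigp1, an immunity-related GTPase, read 4.81, 4.32 and 4.49 in SV129 CBE arrays, 4.18, 3.94 and 4.16 in SV129 PBS arrays, 6.60, 6.20 and 5.78 in FVB CBE arrays, and 4.36, 4.03 and 4.47 in FVB PBS arrays. Here SV129 CBE did lie above SV129 PBS in all 3 arrays, by 0.45 on average (adjusted p = 0.391), against a rise of 1.91 in FVB (adjusted p = 0.00019).

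Fewer upstream components passed. Of 16 measured interferon receptors, Stats and Irfs, none rose in SV129 and 1 rose in FVB (0.316% of all genes), and the medians were -0.040 and 0.108. The 1 was Irf7, the transcription factor that amplifies type I interferon production, at 0.48 in SV129 (adjusted p = 0.349) and 1.25 in FVB (adjusted p = 0.00562). Socs3, a feedback inhibitor of cytokine receptors, was at -0.06 in SV129 and 0.22 in FVB, neither of which passed. Of 17 sensors of microbial and self nucleic acids and their partners, none rose in SV129 and 3 rose in FVB (0.316% of all genes): Casp1, Ifih1 and Ddx58. The FVB count was 1 to 3 with single arrays left out. Ifih1 and Ddx58, both sensors of double-stranded RNA, were at 0.39 and 0.37 in SV129 and rose by 0.91 and 0.44 in FVB. Of 24 chemokines and cytokines 2 rose in SV129 (Ccl3 and Cxcl10) and 7 rose in FVB, against 0.0271% and 0.316% of all genes. The medians, 0.120 and 0.144, were close together, yet 2 members, Ccl5 and Cxcl11, passed the test of the difference. Below 0 were 17 of the 24 differences (70.8%, against 49.7% over all genes), and 13 to 19 with single arrays left out. Their median was -0.063. Ccl2, a monocyte chemokine, was at 0.09 in SV129 and 0.11 in FVB, and Ccl4 at 0.02 and 0.10.

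Class I antigen presentation, which displays peptides from inside a cell to T cells, had members that rose in FVB. Of 20 members none rose in SV129 and 3 rose in FVB (0.316% of all genes), with medians of 0.007 and 0.452. Below 0 were 17 of 20 differences (49.7% over all genes), 1 of them (B2m) past the test. The FVB count was 1 to 4 with single arrays left out. H2-K1, a class I heavy chain, read 5.82, 5.83 and 5.70 in SV129 CBE arrays, 6.30, 5.12 and 5.89 in SV129 PBS arrays, 7.16, 7.50 and 6.30 in FVB CBE arrays, and 5.65, 5.40 and 5.03 in FVB PBS arrays. The SV129 groups overlapped and the FVB groups did not. H2-Q4 was at -0.37 in SV129 and rose by 1.12 in FVB. Class I heavy chain genes resemble each other and vary between strains, so the assignment of a probe set to 1 of them is uncertain. Tap1, which pumps peptides to class I molecules, was at 0.00 in SV129 and 0.96 in FVB (adjusted p = 0.0798 in FVB). Of 10 members of the class II pathway, Ctss was the 1 that rose in FVB, none rose in SV129, and the medians were 0.055 and 0.258.

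Complement genes, which tag material for uptake by phagocytes, followed the same order. Of 15 members none rose in SV129 and 7 rose in FVB (0.316% of all genes), the medians were 0.106 and 0.506, and 12 of 15 differences were below 0 (49.7% of all genes) with none past the test. With single arrays left out 3 to 6 rose in FVB, and the SV129 median ran from 0.033, without SV129 PBS replicate 2, to 0.144. C1qb, a subunit of the first complement component made by microglia, read 8.61, 8.74 and 8.18 in SV129 CBE arrays, 8.36, 8.21 and 7.87 in SV129 PBS arrays, 8.92, 8.69 and 8.56 in FVB CBE arrays, and 7.36, 7.35 and 7.19 in FVB PBS arrays. The 2 CBE groups overlapped here and the PBS groups did not: SV129 PBS stood 0.84 above FVB PBS (adjusted p = 0.011). The same held for C1qc, at 0.85 between the PBS groups (adjusted p = 0.00172), and for C3ar1, a receptor for a complement fragment, at 0.43 (adjusted p = 0.0296). For C1qa, the other subunit, the PBS groups were at -0.12 (adjusted p = 0.793). Whether sequence differences between the strains alter the signal of single probe sets was not tested. C4b, which has a near-identical neighbour in C4a, was at 0.53 in SV129 and rose by 1.64 in FVB.

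Microglial and myeloid genes gave a smaller gap. Of 16 homeostatic microglial genes none rose in SV129 and 1, Trem2, rose in FVB (0.316% of all genes). The mean of the list was 6.16, 6.25 and 6.08 in SV129 CBE arrays, 6.28, 5.98 and 6.11 in SV129 PBS arrays, 6.49, 6.47 and 6.37 in FVB CBE arrays, and 6.27, 6.29 and 6.15 in FVB PBS arrays. The FVB CBE arrays were thus the highest also for this list, while P2ry12 changed by -0.04 in SV129 and 0.02 in FVB and Tmem119 by 0.10 and 0.12. The part of microglial number in the interferon gene values was not tested. Trem2, a lipid receptor of microglia, was at 0.16 in SV129 and rose by 0.73 in FVB. Siglech, another microglial receptor, was at -0.29 in SV129 and 0.44 in FVB, and neither passed.

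Of 20 genes of disease-associated microglia none rose in SV129 and 5 rose in FVB (0.316% of all genes), with medians of 0.120 and 0.208. With single arrays left out 1 to 4 of the 20 rose in FVB, and with a replicate block 3 did. Cst7, a protease inhibitor, read 3.59, 3.82 and 3.84 in SV129 CBE arrays, 3.76, 3.91 and 3.66 in SV129 PBS arrays, 4.45, 5.35 and 4.47 in FVB CBE arrays, and 3.69, 3.79 and 3.75 in FVB PBS arrays. The FVB CBE values were all above the highest value of the other groups. The Cst7 rise of 1.01 in FVB (adjusted p = 0.0386) did not pass in 9 of the 12 fits that left out 1 array, with an adjusted p of up to 0.184. Cd68, a lysosomal membrane protein of phagocytes, was at 0.11 in SV129 and rose by 0.76 in FVB, and it was 0.41 higher in SV129 PBS than in FVB PBS (adjusted p = 0.0443). Gpnmb, a glycoprotein known to rise in Gaucher tissue, was at 0.01 in SV129 and -0.09 in FVB, with all 12 values between 3.81 and 4.10. Of 19 myeloid and Fc receptor genes none rose in SV129 and 3 rose in FVB (0.316% of all genes). Cybb, the electron-carrying subunit of the phagocyte oxidase, read 4.16, 4.36 and 4.16 in SV129 CBE arrays, 3.75, 3.76 and 3.52 in SV129 PBS arrays, 5.29, 5.47 and 5.07 in FVB CBE arrays, and 3.85, 4.10 and 3.93 in FVB PBS arrays. The SV129 CBE arrays lay above their PBS arrays, by 0.54 on average (adjusted p = 0.136). Fcgr1, the high-affinity receptor for IgG, was at 0.23 in SV129 and rose by 1.02 in FVB.

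Blood cell markers stayed low. S100a8 lay at 3.31 to 3.44 and Cd3e at 3.34 to 3.89 in the 12 arrays. Of 13 lymphocyte genes none rose in either strain, with list means of 3.53 to 3.65 in SV129 CBE, 3.47 to 3.56 in SV129 PBS, 3.59 to 3.63 in FVB CBE and 3.54 to 3.63 in FVB PBS arrays. Of 11 monocyte and neutrophil genes 1, Csf3r, rose in FVB, by 0.59, and was at 0.25 in SV129, and the rise did not pass in 4 of the 12 fits that left out 1 array.

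Few genes of the astrocyte, lysosome and lipid lists passed. Of 22 reactive astrocyte genes 1 rose in SV129 (Cxcl10) and 2 rose in FVB (Cxcl10 and Serping1), against 0.0271% and 0.316% of all genes. The medians were 0.110 and 0.106. Gene by gene, 14 of the 22 differences were below 0 (63.6%, against 49.7% over all genes). Their median of -0.162 over the 22 ran from -0.193 to -0.060 with single arrays left out. The mean of the list was 4.92 to 5.02 in SV129 CBE arrays, 4.75 to 4.94 in SV129 PBS arrays, 5.17 to 5.21 in FVB CBE arrays, and 4.87 to 4.94 in FVB PBS arrays. The FVB CBE arrays were above the other 9. Gfap, the intermediate filament of astrocytes, read 6.73, 6.67 and 6.40 in SV129 CBE arrays, 6.79, 5.23 and 5.73 in SV129 PBS arrays, 8.28, 8.02 and 7.78 in FVB CBE arrays, and 6.73, 6.85 and 6.53 in FVB PBS arrays. The FVB groups were separate and the SV129 groups overlapped through 1 high PBS array, and neither change passed (0.68, adjusted p = 0.397 in SV129; 1.32, adjusted p = 0.105 in FVB). Of 30 lysosomal genes none rose in SV129 and 3 rose in FVB (0.316% of all genes), the proteases Ctsc, Ctss and Ctsz, with medians of 0.033 and 0.002. Of 19 genes of glucosylceramide and ganglioside metabolism, the pathway that CBE blocks, none passed in either strain. Ugcg, which makes glucosylceramide, was at -0.26 in SV129 and -0.02 in FVB. St8sia1, a ganglioside synthase, was at -0.33 in SV129 and 0.18 in FVB, and Gltp, a glycolipid transfer protein, at 0.19 and -0.42.

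**Figure D4:**
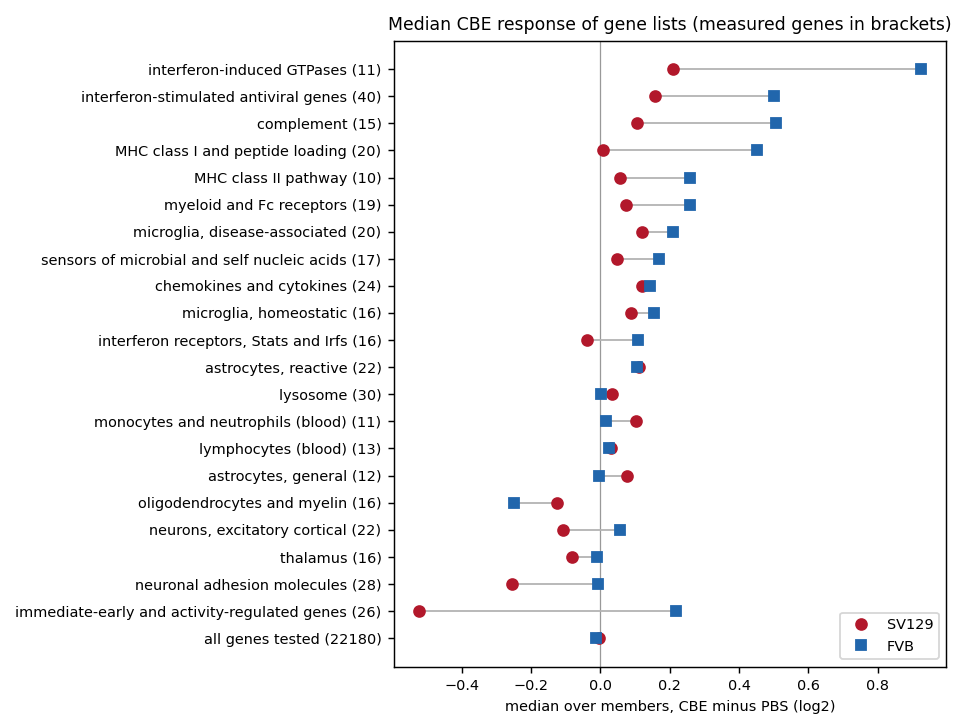
Median CBE-minus-PBS value over the measured members of gene lists and over all genes (horizontal axis, log2), with a circle for SV129, a square for FVB and a grey line joining them, and the number of members in brackets. The squares of the interferon GTPases (0.926) and complement genes (0.506) lie to the right of their circles (0.209 and 0.106), and the circle of the immediate-early genes (-0.523) lies to the left of its square (0.217).

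Falls after CBE were seen in SV129. There 5 genes fell, and none of the 22180 genes fell in FVB (limma, adjusted p under 0.05). The named ones were Itga4, Qrfpr, Zfp72 and Prkdc, and the other was an unnamed clone. Both counts depended on the fit. With single arrays left out 0 to 14 genes fell in SV129 and 0 to 3 in FVB. The fit of 23 arrays gave 25 falls in SV129 and 2 in FVB, and an ordinary linear model 0 and 1. Itga4, the α4 integrin subunit, read 5.47, 5.76 and 5.76 in SV129 CBE arrays, 6.51, 6.86 and 6.47 in SV129 PBS arrays, 6.01, 5.86 and 5.84 in FVB CBE arrays, and 5.82, 6.00 and 5.95 in FVB PBS arrays. The SV129 PBS arrays were the high ones, and the FVB groups overlapped. Itga4 fell by 0.95 in SV129 (adjusted p = 0.0146) and changed by -0.02 in FVB, a difference of -0.93 ± 0.16 (adjusted p = 0.152). Its level was 0.69 higher in SV129 PBS than in FVB PBS (adjusted p = 0.00638), and the Itga4 fall did not pass without SV129 CBE replicate 1 (adjusted p = 0.0553).

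Qrfpr, a neuropeptide receptor, showed the same arrangement, with 4.84, 4.63 and 5.42 in SV129 CBE arrays, 6.02, 5.93 and 5.99 in SV129 PBS arrays, 4.97, 4.97 and 4.74 in FVB CBE arrays, and 4.98, 4.96 and 5.14 in FVB PBS arrays. Again SV129 PBS alone was high. The Qrfpr fall of 1.01 in SV129 (adjusted p = 0.0483) did not pass in 11 of the 12 fits that left out 1 array. Zfp72, a zinc finger protein, fell by 0.76 in SV129 and was at 0.09 in FVB, and the fall did not pass in 6 of these 12 fits. Prkdc, the catalytic subunit of the DNA-dependent protein kinase, fell by 0.53 in SV129 and was at -0.21 in FVB, and the fall did not pass in 11 of them. In 4 of the 5 genes that fell, the PBS groups themselves differed past the threshold, with SV129 PBS higher; Prkdc was the exception, at 0.18. The SV129 PBS arrays enter the fall and that strain difference alike, so these are not independent observations.

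Neuronal adhesion molecules, which guide and hold synaptic contacts, leaned the same way. Of 28 members 1, Itga4, fell in SV129 and none passed in FVB, and the medians were -0.255 and -0.007. Under PBS the list was already higher in SV129 than in FVB, by a median of 0.230, with 22 of 28 values above 0 (51.5% over all genes). There 4 of the 28 passed as higher in SV129 PBS (1.65% of all genes). The SV129 PBS arrays enter both comparisons. Itga4 is an integrin subunit known chiefly from leukocytes, and none of the other members passed in SV129. Tenm3, a teneurin of neuronal contacts, read 8.53, 8.10 and 8.51 in SV129 CBE arrays, 9.35, 9.42 and 9.06 in SV129 PBS arrays, 8.81, 9.20 and 8.60 in FVB CBE arrays, and 8.64, 8.65 and 8.74 in FVB PBS arrays. The SV129 groups did not overlap, yet neither the SV129 change of -0.90 (adjusted p = 0.0690) nor the difference of -1.09 (adjusted p = 0.237) passed. Cntn6, a contactin, was at -0.83 in SV129 (adjusted p = 0.0584) and 0.15 in FVB. Adcy8, a calcium-stimulated adenylyl cyclase of neurons, was at -0.71 in SV129 and 0.38 in FVB, a difference of -1.08 ± 0.19 (adjusted p = 0.152).

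Markers of thalamus, which lies deeper than the cortex in a coronal slice, did not pass in either response. Of 16 genes 12 were below 0 in SV129 (11245 of 22180 over all genes), with a median of -0.083 there and -0.009 in FVB. In 2 of the 16 (12.5%) the SV129 CBE arrays all lay below the SV129 PBS arrays, near the 8.94% of all genes. The mean of 16 thalamic genes was 5.93, 5.93 and 5.90 in SV129 CBE arrays, 6.11, 6.08 and 6.07 in SV129 PBS arrays, 5.93, 5.97 and 6.03 in FVB CBE arrays, and 5.99, 5.98 and 5.97 in FVB PBS arrays. The SV129 PBS arrays were above all others, and 2 of the 16 genes passed as higher in SV129 PBS than in FVB PBS (1.65% of all genes). Ntng1, an axon guidance protein enriched in thalamic neurons, read 7.81, 7.33 and 7.39 in SV129 CBE arrays, 8.65, 8.30 and 8.04 in SV129 PBS arrays, 7.61, 7.61 and 7.69 in FVB CBE arrays, and 7.71, 7.63 and 7.72 in FVB PBS arrays. Slc17a6 was at -0.85 in SV129 and -0.04 in FVB. Most members lay closer to 0 than these, such as Tcf7l2 at -0.03 in SV129 and -0.13 in FVB. Of 12 hippocampal and 11 striatal genes none passed in either response. Their medians were -0.056 and -0.088 in SV129, and -0.037 and -0.177 in FVB. The SV129 CBE arrays all lay below the PBS arrays in 3 hippocampal genes (25.0%) and 1 striatal gene (9.09%). They all lay above them in 2 genes of each list (16.7% and 18.2%), against 6.46% of all genes. The part of dissection in the SV129 falls was not tested.

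Immediate-early genes, which neurons switch on within minutes of activity, had a median difference of -0.719. Of 26 members 24 were below 0 (49.7% over all genes), and none passed the test. The mean over the 26 was 6.84, 6.51 and 6.79 in SV129 CBE arrays, 6.91, 7.41 and 7.63 in SV129 PBS arrays, 7.11, 7.47 and 7.31 in FVB CBE arrays, and 7.07, 7.22 and 7.04 in FVB PBS arrays. SV129 CBE was the lowest group, and SV129 PBS spread widely, with its first array close to the CBE arrays. The median change was -0.523 in SV129 and 0.217 in FVB, and leaving out single arrays moved the median difference between -0.514 and -0.924. It was the most negative of the lists with all 12 arrays and in 5 of the 12 fits that left out 1 array, and that of the interferon-induced GTPases was in the other 7. Nr4a3, an activity-induced nuclear receptor, read 6.14, 5.61 and 6.19 in SV129 CBE arrays, 6.54, 7.46 and 7.65 in SV129 PBS arrays, 7.05, 7.56 and 6.91 in FVB CBE arrays, and 6.80, 7.04 and 6.60 in FVB PBS arrays. Its difference was -1.60 ± 0.37 (adjusted p = 0.302). Junb, a subunit of the AP-1 transcription factor, was at -0.50 in SV129 and 0.39 in FVB, and Per1, a clock gene that activity also induces, at -0.35 and 0.47, and none of these values passed.

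**Figure D5:**
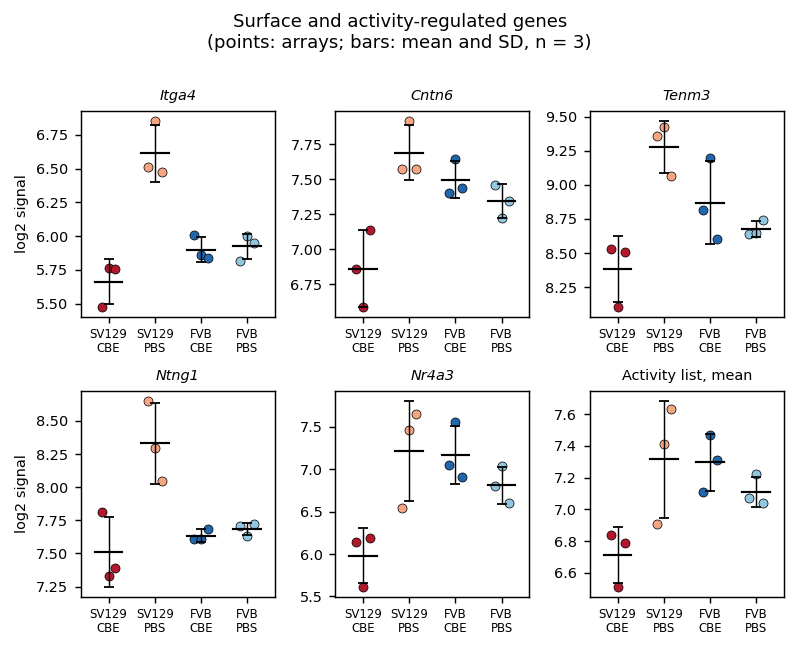
Log2 signal (vertical axes, separate ranges) of Itga4, Cntn6, Tenm3, Ntng1 and Nr4a3 and of the mean over 26 immediate-early genes, with 1 point per array and the mean and SD of 3 arrays for SV129 CBE, SV129 PBS, FVB CBE and FVB PBS from left to right. SV129 CBE lies below SV129 PBS in each panel, as for Itga4 at 5.47 to 5.76 against 6.47 to 6.86, while the FVB groups lie close together for Itga4, at 5.84 to 6.01 and 5.82 to 6.00.

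No gene passed with a larger response in SV129, and the values on that side were modest. Igfbp3, a carrier of insulin-like growth factors, read 7.49, 7.38 and 7.16 in SV129 CBE arrays, 6.91, 6.78 and 6.62 in SV129 PBS arrays, 5.86, 5.90 and 5.96 in FVB CBE arrays, and 6.18, 6.30 and 6.01 in FVB PBS arrays. The CBE arrays were above PBS in SV129 and below PBS in FVB, without overlap in either strain. The difference was 0.83 ± 0.15 (adjusted p = 0.152), and the strains already differed under PBS, by 0.60 (adjusted p = 0.00936). Pkp2, a desmosomal plaque protein, was at 0.82 in SV129 (adjusted p = 0.0553) and -0.03 in FVB. Lrg1, a secreted glycoprotein of vessels, was at 0.41 in SV129 and -0.25 in FVB. Ang2, a ribonuclease of the angiogenin family, was at 0.29 and -0.33, and none of these passed.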

How the data were processed

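RNA from the cortex of 24 mice was hybridised to 24 single-channel Affymetrix arrays, and the 12 arrays of SV129 and FVB were used here. The authors deposited 1 log2 signal for each probe set on each array, made with Partek and RMA (robust multi-array average) per the submitters' processing notes, with versions and genome build not given in the sources used here. No source states the logarithm's base, and it was taken as 2 because the highest value, 14.09, fits a 16-bit scanner only in that base. RMA can shrink differences near the low end of the scale, where many chemokine and GTPase genes lie, and array values carry no count of molecules, so the number of arrays limits the precision.

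Of 41034 probe sets, 23521 had 1 gene symbol in the platform annotation, 1814 had several and 15699 had none given. For the 1082 genes with several probe sets, the brightest on average over all 24 arrays was kept, which left 22180 genes. limma 3.58.1 in R 4.3.3 was fitted to the 4 group means (residual degrees of freedom 8, prior 5.04), two-sided, with Benjamini-Hochberg adjustment over all genes and a threshold of 0.05. The procedure was tested on simulated data with independent noise and log2 differences added to FVB CBE. It called 11 of 67 genes with an added 0.5, 54 of 67 with 1 and 66 of 66 with 2, and 5 unchanged genes. Differences of about 0.5 were thus mostly missed. An exact permutation test of 3 against 3 arrays cannot give a p below 0.1. Intervals in the report are 95% and unadjusted.

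The contrast, the 38 gene lists (733 entries, 662 measured, 5 of them through another symbol) and the rule for naming genes were chosen with earlier results of these data known. The rule took all genes past the test of the difference, topped up to 8 per direction by smallest p, the 6 largest rises and falls per strain, up to 6 members per list past that test or the 2 of smallest p, and 14 fixed genes. Unnamed clones were counted only. Other genes named (among them Herc6, H2-K1, H2-Q4, Tap1, Ccl2, Ccl4, Ugcg, C1qa, C1qc, C4b and the further list members that passed in FVB) were chosen after their values were seen. Lists are described by counts and medians beside those of all genes. Promoter windows came from RefSeq (GRCm38.p6). Alternatives were a fit of 24 arrays or of 23, median centring, quantile normalization, a filter on dim genes, the mean of a gene's probe sets, trended and robust variances, an ordinary linear model, a replicate block and leaving out each array.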

Additional observations from a re-analysis of the deposited data

Results flagged for a closer look

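The effect of CBE differed between the 2 strains by the interaction test in 5 genes, each of which rose in FVB and did not pass in SV129. The difference in log2 response, SV129 minus FVB, was -2.42 for Ccl5, -1.77 for B2m, -1.56 for Cxcl11, -1.40 for Ctss and -1.03 for Casp1 (limma, adjusted p from 0.000615 to 0.0217). In all 5 genes the 3 FVB CBE arrays lay above each of the other 9 arrays. The genes were chosen by the test on these same arrays, so this separation partly follows from the choice and is no further evidence. Groups of 3 arrays are too small to test whether a single array lies far from its group. The C3H CBE array said to stand apart was known from earlier work on these data and was not singled out by a test here.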

How the results depend on the processing

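The count of genes whose response differed was 5 after median centring, quantile normalization, the dim-gene filter, averaging of probe sets and with trended variances, and Ccl5, Cxcl11, B2m, Ctss and Casp1 were the 5 each time. The fit of 24 arrays gave 0 for the difference (1772 at an unadjusted p under 0.05), 25 for the SV129 response, 30 for the FVB response and 861 for the PBS difference. The fit of 23 arrays, chosen with the C3H array known to stand apart, gave 8 for the difference, 32 for SV129, 85 for FVB and 910 for PBS, and did not call Casp1 (adjusted p = 0.129). An ordinary linear model gave 1 (Cxcl11), 0, 24 and 223, with 2254 genes at an unadjusted p under 0.05 for the SV129 response. Averaging probe sets left 5 SV129 genes. With single arrays left out the counts ran from 2 to 10 for the difference, 0 to 22 for SV129, 44 to 71 for FVB and 234 to 641 for PBS. The difference count was 2 without SV129 PBS replicate 3, FVB PBS replicate 2 or FVB CBE replicate 2, 10 without SV129 PBS replicate 1 and 8 without FVB CBE replicate 3. The SV129 count moved by over 1.5 times in all of these refits except those without FVB CBE replicate 1 or 2, the FVB count only without FVB PBS replicate 2, and the PBS count without SV129 PBS replicate 2 or 3 or FVB PBS replicate 2 or 3. Each of these refits also had 1 array fewer, and the causes of the changes were not tested. With a replicate block the counts were 7, 7, 67 and 469. Deviations from the group mean correlated at -0.193 to 0.266 between same-numbered arrays (18 pairs) and at -0.226 to 0.236 between differently numbered ones (36 pairs). Most of the 18 pairs join different strains and groups of 3 are small, so whether the numbers pair the samples stays unknown. Single genes kept their direction except Epb42, an erythroid gene, at -0.001 without FVB PBS replicate 3, which with single arrays left out ran from -0.001 to 0.163.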

Other observations

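Of the vessel and myelin genes none passed the test of the difference. Of 15 pericyte, smooth muscle and meningeal genes 13 had a difference above 0, with a median of 0.161, and of 13 endothelial genes 10 did, with a median of 0.084, against 50.3% above 0 over all genes. With single arrays left out the pericyte median ran from 0.097 to 0.332 and the endothelial one from 0.006, without SV129 PBS replicate 2, to 0.171, and without that array 6 of the 13 endothelial differences were below 0. Cdh5, the cadherin of endothelial junctions, was at 0.25 in SV129 and -0.29 in FVB, Cldn5, a tight junction protein, at 0.16 and -0.39, and Abcc9, a pericyte channel subunit, at 0.10 and -0.34. Of 16 oligodendrocyte and myelin genes 13 were above 0 in the difference, with a median of 0.128 that ran from -0.028, without SV129 CBE replicate 1, to 0.265, without SV129 CBE replicate 2, and was 0.011 without SV129 PBS replicate 2. In that list the median change was -0.125 in SV129 and -0.249 in FVB. The myelin list started lower in SV129 PBS than in FVB PBS, by a median of -0.605, with 2 of 16 genes past the threshold.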
